A study of Rattus norvegicus with 4 samples.

Results

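The tumour necrosis factor (TNF) superfamily was read out in NR8383 cells, a macrophage line established from rat lung lavage, after exposure to carbon nanotubes. The members were the rat genes whose symbols begin with Tnfsf or Tnfrsf and a number or are Traf1 to Traf7, with Tnf, Lta, Ltb, Ltbr, Fas, Faslg, Cd40 and Cd40lg added by name. The rule used gene names and no measured value. It found 37 genes on 40 probes, of 16581 named genes and 45598 probes in all. They comprised 14 ligands, 18 receptors and 5 TRAF adaptors. Another 8 family symbols (Tnfrsf10b, Tnfrsf13c, Tnfrsf22, Tnfrsf26, Tnfsf18, Tnfsf8, Traf3 and Traf5) had no probe that could be named and were not analysed here.

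All 4 samples came from NR8383 cells that had been passaged 20 times, seeded for 48 h and given NRCWE049, a carbon nanotube functionalized with NH2 groups, at 1.2 cm²/cm² for 4 h, per the labels. They formed 1 group of 4 biological replicates. Arrays of unexposed cells were not analysed here, so the values describe exposed cells and cannot show an effect of the nanotubes. RNA was hybridised to one-colour Agilent arrays. A gene was called detected where a probe was well above background by Agilent's flag on all 4 arrays. The level of a gene is its log2 signal minus that array's 75th percentile, taken over probes detected on every array. Probes differ in brightness for reasons other than RNA amount, so levels serve to follow each gene across replicates and not to rank genes. Of 8 macrophage markers, 8 were detected, while none of 5 epithelial and none of 4 fibroblast markers were; of 8 T and NK cell markers, 4 were detected (Cd3d, Cd4, Lck and Nkg7), and Cd3e, Cd3g, Cd8a and Zap70 were on no array. Of 3 measured B cell markers, 1 (Pax5) was detected, as were 2 of 4 endothelial markers (Pecam1 and Cdh5). In RNA from a whole culture, fewer expressing cells and less RNA per cell cannot be told apart.

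Most TNF superfamily ligands are membrane-anchored proteins that assemble as trimers and act at the cell surface or, once cut by proteases, as soluble cytokines. Their receptors carry cysteine-rich repeats outside the cell. Inside it, some hold a death domain that recruits adaptors such as TRADD or FADD, and others bind TRAF proteins directly. TRAFs are adaptors, most of them with a RING domain, that link the receptors to kinases and to NF-kB. In macrophages TNF is an early product of activation and acts back on the cells that release it.

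Of the 37 members, 17 (45.9%) were detected in exposed cells, against 52.5% of all named genes. The detected members were the ligands Tnf, Ltb, Tnfsf9, Tnfsf12, Tnfsf13 and Tnfsf15, the receptors Tnfrsf1a, Tnfrsf4, Tnfrsf11a, Tnfrsf12a, Tnfrsf21, Fas and Ltbr, and the adaptors Traf2, Traf4, Traf6 and Traf7. This was 6 of 14 ligands, 7 of 18 receptors and 4 of 5 TRAFs. Another 5 members were well above background on 1 to 3 arrays, and 15 were on none, against 42% of all named genes. No member was saturated. The share of members detected was close to the background share, so the count is not a result about the family.

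**Figure D1:**
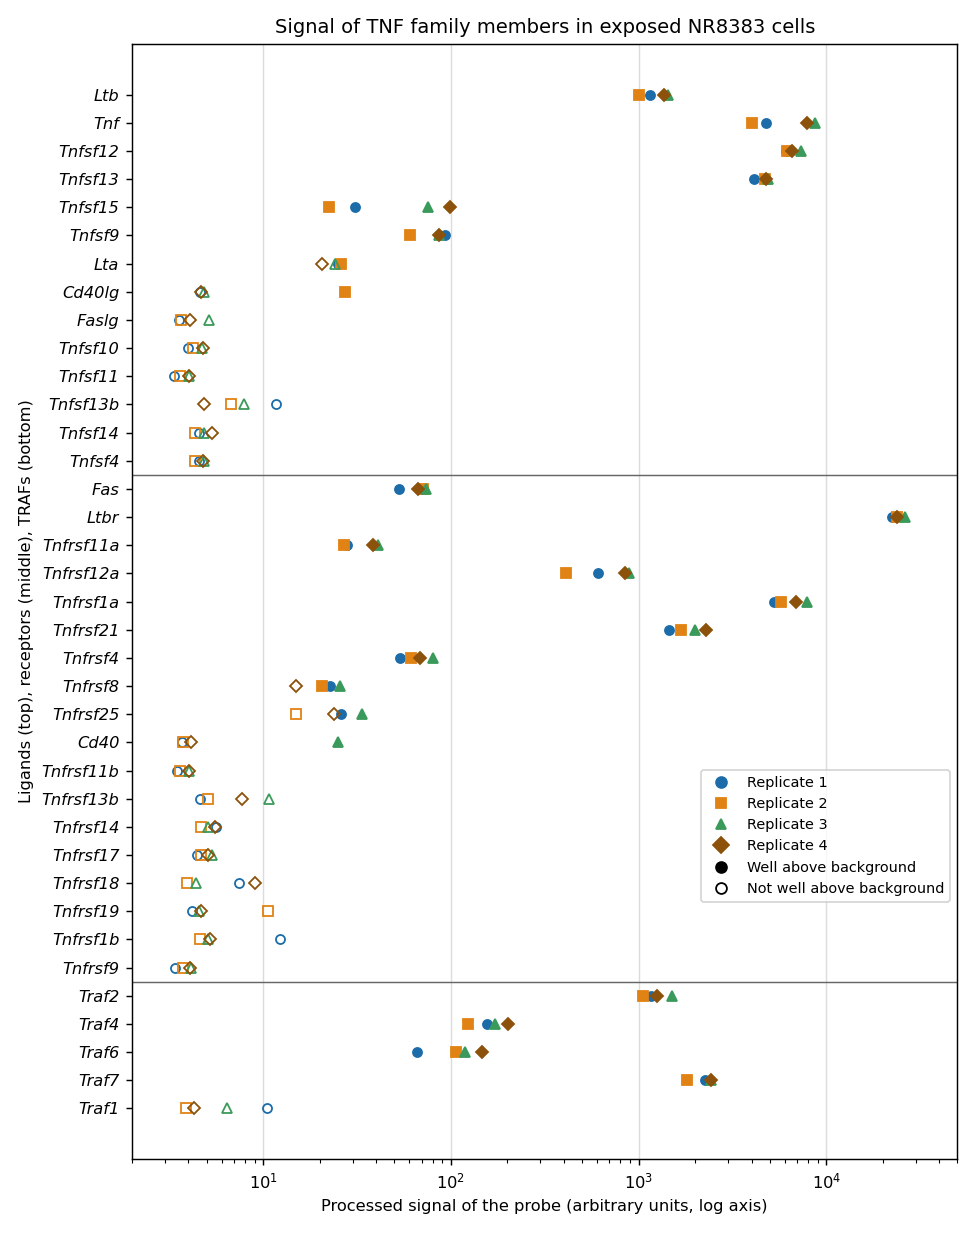
Processed signal (arbitrary units, log axis) of the 37 members on each of the 4 arrays, for the probe detected on most arrays and then the brightest; filled symbols were well above background and open ones were not. Symbols are to be compared within a row only. The 15 members on no array lie between signals of 3.35 and 12.3.

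Among the ligands, Tnf, the founding cytokine of the family, was measured by a pair of probes. The brighter gave processed signals of 4803, 4012, 8692 and 7943 in replicates 1 to 4, and the dimmer gave 141, 85.9, 187 and 215. Both probes were well above background on every array, and on both replicate 2 was lowest. As levels, the brighter probe stood at 1.29, 1.02, 1.80 and 1.73, a mean of 1.46 ± 0.37 (SD, n = 4), with the highest replicate 1.72-fold above the lowest. The dimmer probe spanned 2.06-fold, with replicate 4 highest where the brighter had replicate 3 highest. Replicates 3 and 4 were thus above replicates 1 and 2 on both probes. Without replicate 2, the range of the brighter probe was 0.51 on the log2 scale, against 0.78 with all replicates.

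Ltb encodes lymphotoxin beta, which pairs with lymphotoxin alpha in a membrane complex that binds the lymphotoxin beta receptor. Its levels were -0.78, -0.97, -0.79 and -0.81, and the highest replicate was 1.15-fold above the lowest. The gene differed little between replicates. Lta, which encodes lymphotoxin alpha, gave signals of 24.9, 25.9, 24.1 and 20.5. It was well above background in replicates 1 and 2 and not in replicates 3 and 4, although its signal in replicate 3 was close to those in replicates 1 and 2. Lta, Tnf and Ltb lie next to each other on rat chromosome 20 in the RefSeq gene order. By the flag used here, Tnf and Ltb were detected on all arrays and Lta was not. With Agilent's flag of a significant positive signal, or the 95th percentile of negative control spots, Lta was detected on all 4 arrays as well.

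Tnfsf12 (TWEAK, a ligand of tissue repair and inflammation) and its chromosomal neighbour Tnfsf13 (APRIL, a survival factor of B lineage cells) were both detected and steady. Tnfsf12 stood at 1.63, 1.64, 1.55 and 1.44, a 1.14-fold range. Tnfsf13 gave signals of 4145, 4713, 4911 and 4803, and its levels spanned 1.21-fold with replicate 2 highest after scaling. Tnfsf9, the ligand of the costimulatory receptor 4-1BB, gave signals of 93.5, 60.4, 86.6 and 86.4, with replicate 2 lowest. Its level averaged -4.77 ± 0.27 (SD, n = 4), and the range of 0.64 on the log2 scale was 0.24 without replicate 1.

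Tnfsf15 (TL1A, the ligand of the death domain receptor encoded by Tnfrsf25) had the largest range of the detected members with the processed signals, and not with normexp. Its signals were 31.0, 22.5, 75.3 and 99.4 in replicates 1 to 4, with errors from Agilent's error model of 5.38, 4.72, 8.83 and 10.9. Those errors cover the spot on its array and not the spread between cultures. Tnfsf15 was near background in replicates 1 and 2, where the dimmest probe called well above background gave 16.7 and 18.0. On the level scale it stood at -5.99, -6.46, -5.05 and -4.60, and the highest replicate was 3.64-fold above the lowest. It was the only detected member to span more than 2-fold, against 2.66% of all detected genes. This range was 1.86 on the log2 scale and 0.75 with normexp on the raw spot signals, where Tnf had 0.78. Replicate 2 was lowest and replicate 4 highest for Tnfsf15 in both. Normexp was run with an offset of 50, of the order of these signals, and an added constant narrows the log2 range of a dim probe. The part of the offset and that of the background correction were not told apart.

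The ligands with no array well above background were Faslg, which triggers cell death through Fas, Tnfsf10 (TRAIL), Tnfsf11 (RANKL, the osteoclast differentiation factor), Tnfsf13b (BAFF), Tnfsf14 (LIGHT) and Tnfsf4 (OX40L). Faslg gave signals of 3.58, 3.66, 5.17 and 4.05, where the dimmest probe called well above background on these arrays gave 16.7, 18.0, 20.0 and 20.1. Tnfsf13b was less dim, with signals of 11.6, 6.72, 7.95 and 4.83. Cd40lg, a ligand of activated T cells, was well above background in replicate 2 alone, at 27.4 against 4.59, 4.86 and 4.66 in replicates 1, 3 and 4. It has 1 spot per array, so no second spot was available to check that value.

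The promoters of the 3 clustered ligand genes, and of Tnfsf15 and Tnfrsf12a, which with Tnf had an unadjusted p under 0.05 in the variance test given further on, are printed here as the 250 bases before the annotated start (RefSeq sequences, GRCr8), 5′ to 3′ on the gene's strand. Capitals mark matches on either strand to the kappa B consensus, to TGANTCA (a site type bound by AP-1), to TATAAA and to GGGCGG (a GC box). A minus-strand match appears as its reverse complement. The windows lie at chr20:3626435-3626684, plus strand, for Tnf; chr20:3623277-3623526, plus strand, for Lta; chr20:3634055-3634304, minus strand, for Ltb; chr5:82171659-82171908, minus strand, for Tnfsf15; and chr10:13213649-13213898, minus strand, for Tnfrsf12a.
Tnf: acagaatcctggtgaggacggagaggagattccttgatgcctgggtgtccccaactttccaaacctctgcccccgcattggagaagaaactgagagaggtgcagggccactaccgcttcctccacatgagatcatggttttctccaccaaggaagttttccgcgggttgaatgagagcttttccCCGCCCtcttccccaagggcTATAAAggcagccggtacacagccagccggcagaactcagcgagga
Lta: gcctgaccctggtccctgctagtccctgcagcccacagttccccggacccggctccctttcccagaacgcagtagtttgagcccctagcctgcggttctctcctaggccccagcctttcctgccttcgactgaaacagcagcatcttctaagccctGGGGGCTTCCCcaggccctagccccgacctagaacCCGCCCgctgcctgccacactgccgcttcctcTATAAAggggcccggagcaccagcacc
Ltb: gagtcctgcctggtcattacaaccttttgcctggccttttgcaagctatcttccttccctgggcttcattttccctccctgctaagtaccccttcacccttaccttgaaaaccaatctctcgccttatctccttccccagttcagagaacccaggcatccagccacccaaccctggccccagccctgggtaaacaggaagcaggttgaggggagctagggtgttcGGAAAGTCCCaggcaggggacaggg
Tnfsf15: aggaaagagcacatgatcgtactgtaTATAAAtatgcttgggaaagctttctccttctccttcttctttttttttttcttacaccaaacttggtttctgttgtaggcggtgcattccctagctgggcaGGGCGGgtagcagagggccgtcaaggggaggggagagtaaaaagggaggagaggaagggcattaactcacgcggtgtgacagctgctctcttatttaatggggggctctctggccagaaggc
Tnfrsf12a: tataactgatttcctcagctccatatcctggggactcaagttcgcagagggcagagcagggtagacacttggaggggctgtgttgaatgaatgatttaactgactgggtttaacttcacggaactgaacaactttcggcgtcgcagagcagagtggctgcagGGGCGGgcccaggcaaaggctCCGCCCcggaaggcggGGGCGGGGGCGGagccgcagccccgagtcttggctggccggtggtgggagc

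In these windows Tnf held a TATAAA at bases 46 to 41 before the start and 1 GC box, and no kappa B match. Lta held a TATAAA at bases 27 to 22 and a pair of kappa B matches that overlap, running from base 94 to base 84, and 1 GC box. Ltb held 1 kappa B match at bases 25 to 16. Tnfrsf12a held 4 GC boxes, of which 2 adjoin without overlap, and Tnfsf15 held 1 GC box and 1 TATAAA far from the start. The genes printed and the motifs were picked after the values were seen. The RefSeq table held 1 window each for 27 of the 37 members. A kappa B match was present in 6 of 27 (22.2%), against 6.33% of all 33469 promoter windows, and in 3 of 13 windows of detected and 3 of 14 of undetected members. GGGCGG was present in 9 of 13 (69.2%) windows of detected and 7 of 14 (50%) of undetected members, against 30.5% of all windows. TATAAA was present in 2 of 13 (15.4%) and 4 of 14 (28.6%), against 12.9%, and TGANTCA in 1 of 13 (7.69%) and 3 of 14 (21.4%), against 6.34%. The median number of CG dinucleotides was 11 in detected and 5 in undetected members, against 5 over all windows. All 33469 windows covered 27457 symbols, some with more than 1, and were not limited to genes named or detected on these arrays. Members had 1 window each, so the sets compared are unlike and these shares and medians are not results about the family. The matches are descriptions of the letters and say nothing about binding.

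The receptor of TNF that signals death and inflammation, Tnfrsf1a (TNFR1, with a death domain), was detected and steady. Its signals were 5248, 5761, 7865 and 6924, and its levels of 1.41, 1.54, 1.66 and 1.53 spanned 1.18-fold. Tnfrsf1b (TNFR2, which binds TRAF2 and has no death domain) passed on no array, with signals of 12.3, 4.60, 5.11 and 5.20. Its one probe was above the 95th percentile of the negative control spots in replicate 1 alone. A gene with 1 probe below background may still be expressed, and Tnfrsf1b was therefore not detected by this probe rather than shown to be absent.

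Of the 4 measured receptors with a death domain, 3 were detected (Tnfrsf1a, Fas and Tnfrsf21). Fas, which recruits FADD and caspase-8, gave 52.7, 71.2, 74.0 and 66.9 on the probe that was detected, and 4.82, 6.42, 15.2 and 13.5 on a second probe that was well above background on no array. Its call rests on 1 of 2 probes. Tnfrsf21 (death receptor 6) stood at -0.44, -0.23, -0.32 and -0.08, a 1.28-fold range. Tnfrsf25 (death receptor 3) was well above background in replicates 1 and 3, with signals of 25.9, 15.0, 33.5 and 24.0.

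Ltbr, the lymphotoxin beta receptor, and Tnfrsf12a (Fn14, the TWEAK receptor, induced in injured tissue) were each printed 10 times per array, which gave a measure of the error within an array. The median signal of Tnfrsf12a over its spots was 614, 415, 885 and 846 in replicates 1 to 4, after 1 spot flagged as an outlier was left out in replicate 2. Its spots ran from 573 to 648 in replicate 1, 383 to 438 in replicate 2, 837 to 947 in replicate 3 and 801 to 952 in replicate 4. Before scaling, replicates 3 and 4 overlapped with each other, replicate 1 lay below both and replicate 2 below all others. The CV between spots was 3.57%, 4.32%, 3.86% and 4.74%, while the level between replicates spanned 1.72-fold, from -2.27 in replicate 2 to -1.49 in replicate 3. Without replicate 2 the Tnfrsf12a range was 0.19 on the log2 scale, against 0.78 with all replicates. Ltbr had CVs of 4.58%, 4.16%, 4.58% and 4.36% and median signals of 22265, 23641, 25852 and 23805. Its levels of 3.51, 3.59, 3.39 and 3.30 spanned 1.22-fold.

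**Figure D2:**
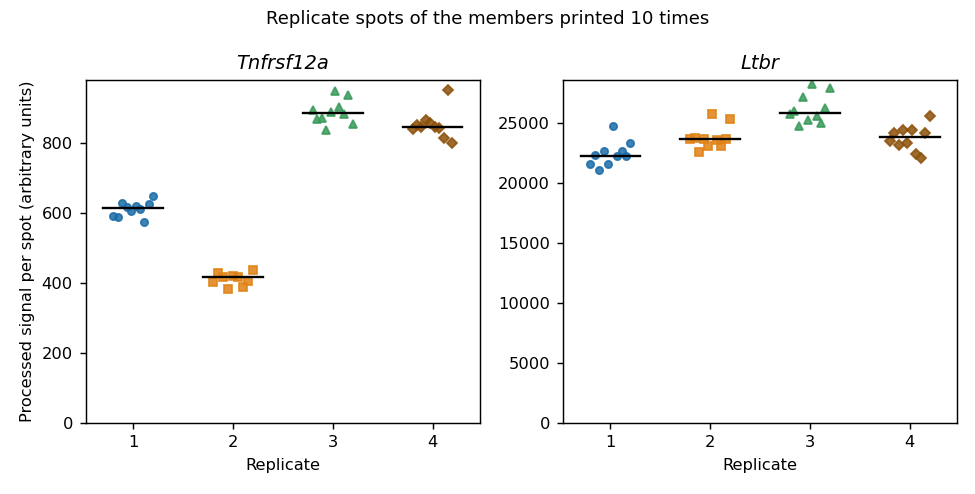
Processed signal of each replicate spot (arbitrary units, from 0) of Tnfrsf12a and Ltbr by replicate; lines are medians, and 1 outlier spot of Tnfrsf12a in replicate 2 is left out. The spots of Tnfrsf12a in replicate 2, from 383 to 438, lie below those of every other replicate. Signals are shown before scaling. The spots of Ltbr in replicate 3 overlap those of replicates 2 and 4 and lie above those of replicate 1. After scaling, its level was lower in replicate 3 (3.39) than in replicate 1 (3.51).

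Tnfrsf11a (RANK, the receptor of RANKL) and Tnfrsf4 (OX40, a costimulatory receptor of T cells) were detected near background, at low signals like those of Fas and Tnfsf15. Tnfrsf11a gave signals of 28.1, 26.9, 41.0 and 38.3, and its levels spanned 1.21-fold. Tnfrsf4 gave 53.7, 61.3, 80.2 and 68.9, a 1.18-fold range after scaling. Both had higher signals in replicates 3 and 4, whose arrays were brighter as a whole: the 75th percentile used for scaling stood at 1970, 1980, 2493 and 2402.5. After scaling, Tnfrsf11a kept both above replicates 1 and 2, at -6.13, -6.20, -5.93 and -5.97. Tnfrsf4 did not, at -5.20, -5.01, -4.96 and -5.12. With normexp, whose offset of 50 is larger than these signals of Tnfrsf11a, the gene lost that order, at -4.33, -4.45, -4.46 and -4.44.

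Of the receptors that were not detected, Tnfrsf8 (CD30) came nearest, well above background in replicates 1, 2 and 3 with signals of 22.7, 20.6 and 25.7, and not in replicate 4 at 15.0. Cd40, the receptor through which T cells activate macrophages, had 2 probes, of which 1 was well above background in replicate 3 alone, at 25.2 against 3.68, 3.72 and 4.15 in replicates 1, 2 and 4. The other Cd40 probe, at 13.9, 9.75, 12.5 and 9.47, was on no array and did not share the high value in replicate 3. Tnfrsf9 (4-1BB), Tnfrsf11b (osteoprotegerin, a secreted decoy for RANKL), Tnfrsf13b (TACI), Tnfrsf14 (HVEM), Tnfrsf17 (BCMA), Tnfrsf18 (GITR) and Tnfrsf19 (TROY) were on no array. Over all roles, signals of the 15 members on no array ran from 3.35 to 12.3. Of these 15, 8 did not exceed the 95th percentile of the negative control spots on any array and 7 did on at least 1.

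Among the TRAFs, Traf2, the adaptor of TNFR1 and TNFR2 signalling, was detected at -0.76, -0.91, -0.72 and -0.93, a 1.16-fold range. Traf6, a ubiquitin ligase shared with the Toll-like receptor and interleukin-1 receptor pathways, gave signals of 65.7, 107, 119 and 146. Replicate 1 was the lowest, and the level spanned 1.82-fold, or 0.87 on the log2 scale; without replicate 1 that range was 0.36. Traf4 spanned 1.35-fold, at -3.66, -4.00, -3.86 and -3.57. Traf7, which lacks the TRAF domain that the other family members share, stood at 0.19, -0.14, -0.04 and 0.02, a 1.26-fold range. Traf1, an NF-kB target that has no RING domain, was on no array, with signals of 10.5, 3.87, 6.44 and 4.26.

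Ligands and receptors were then set side by side as known pairs. Of 25 pairs listed, 21 had both partners measured. Both partners were detected in 3 pairs: Tnf with Tnfrsf1a, Ltb with Ltbr, and Tnfsf12 with Tnfrsf12a. The ligand alone was detected in 5 pairs, including Tnfsf15 without Tnfrsf25, Tnfsf9 without Tnfrsf9, and Tnfsf13 without its receptors Tnfrsf13b and Tnfrsf17. The receptor alone was detected in 5, including Fas without Faslg, Tnfrsf11a without Tnfsf11, and Tnfrsf4 without Tnfsf4. Neither partner was detected in 8. Of all members 45.9% were detected, and of all named genes 52.5%. Whether partners were detected together more often than unrelated genes was not tested, so these counts are not a result about pairing. Under the rule that a probe need be detected on 1 of 4 arrays, Lta, Cd40lg, Cd40, Tnfrsf8 and Tnfrsf25 joined the detected members, which then numbered 22.

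Of the 52 measured genes listed for signalling below the receptors, 49 were detected (94.2%, against 52.5% of all named genes). The list was chosen with earlier results of these data known, so the difference between these shares is not a result about the machinery. The 3 that were on no array were Zfp36, which encodes a protein that destabilises Tnf mRNA, Birc3, a ubiquitin ligase recruited by TRAF2, and Map3k5, the kinase ASK1. With Agilent's flag of a significant positive signal, or the 95th percentile of negative control spots, all 52 were detected. These 3 genes were thus dim and not shown to be absent. Of the 59 genes listed, 7 (Mlkl, Tnfaip3, Tnip2, Tab2, Tab3, Relb and Rel) had no named probe and were not analysed here. For shedding and mRNA control, 9 of 10 were detected, among them Adam17, the protease that releases TNF (levels -2.82, -2.82, -3.00 and -2.59), and Rhbdf2, whose product iRhom2 brings that protease to the cell surface (0.86, 0.66, 1.15 and 1.18). Adam10, another sheddase, averaged -4.42 ± 0.16 (SD, n = 4) and Rhbdf1, a relative of Rhbdf2, -3.98 ± 0.07.

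Of the measured death domain adaptors and death effectors, 9 of 9 were detected. Tradd, the adaptor of TNFR1, averaged 1.15 ± 0.11 (SD, n = 4), and Fadd, the adaptor of Fas, stood at -3.32, -3.44, -3.45 and -3.46. Ripk1 and Ripk3, the kinases of necroptosis, averaged -0.70 ± 0.15 and 1.74 ± 0.06 (SD, n = 4). Of ubiquitin enzymes and regulators, 10 of 11 were detected, including the TRAF2 partner Birc2 (-2.98 ± 0.18), the caspase inhibitor Xiap (-3.94 ± 0.21), and Rnf31 (-1.40 ± 0.27) and Rbck1 (2.34 ± 0.12) of the linear ubiquitin complex. Of the kinases, 8 of 9 were detected, including Map3k7 (TAK1, -3.04 ± 0.35), its partner Tab1 (-0.19 ± 0.12), and the IkB kinases Chuk (-2.66 ± 0.17) and Ikbkb (-1.40 ± 0.08). The range of Map3k7 was 0.76 on the log2 scale, 0.13 without replicate 2, and 0.34 with the mean of its detected probes, where its level was -3.86. All 6 measured NF-kB genes and all 7 TRAF partners were detected. Nfkb1 averaged -1.08 ± 0.18, Nfkb2 0.09 ± 0.20, Rela 0.28 ± 0.12 and the inhibitor gene Nfkbia 0.52 ± 0.10. Traf3ip1, Traf3ip2 and Traf3ip3, whose products were named for binding TRAF3, averaged -4.88 ± 0.10, 0.09 ± 0.06 and -3.08 ± 0.03.

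**Figure D3:**
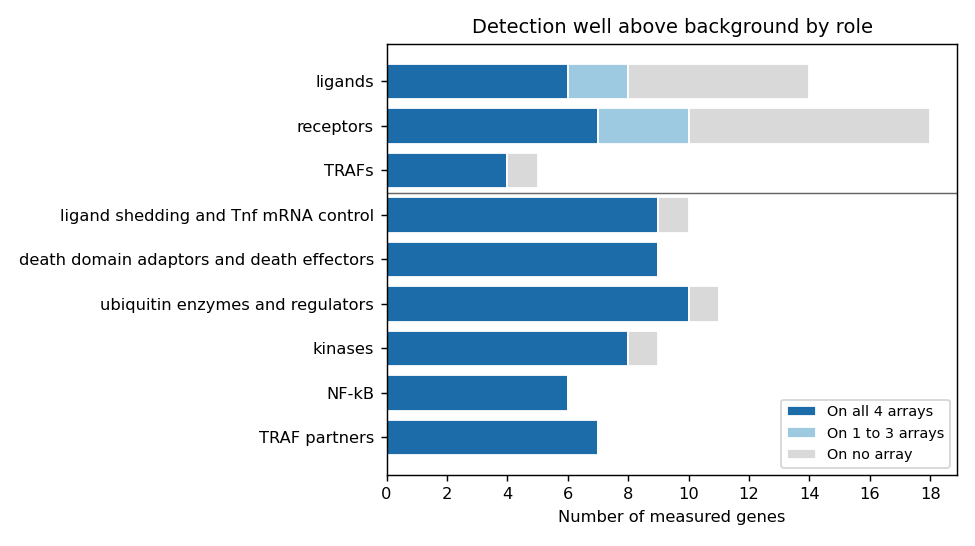
Number of measured genes (x axis) in each role that were well above background on all 4 arrays, on 1 to 3 or on none. Receptors were detected at 7 of 18 and ligands at 6 of 14, while each list of downstream genes had at most 1 gene on no array. Genes without a named probe are left out, and the lists were chosen with earlier results of these data known.

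The detected members differed between replicates by about as much as detected genes in general. The median SD of a member's level was 0.138, against 0.151 over all 8713 detected genes, and the median ratio of the highest to the lowest replicate was 1.26 for both. No member passed the test for a larger variance than genes of like brightness (0 of 17, against 0.0115% of all detected genes; adjusted p of at least 0.97 for each, F test on limma residual variances). At an unadjusted p under 0.05 there were 3 of 17 members, against 4.3% of all detected genes. These were Tnfsf15, Tnf and Tnfrsf12a, each with an adjusted p of 0.97 over all genes by the same limma fit. In simulated data on the same number of genes, none of the genes whose SD was raised 5 times were called (0%), and of those raised 20 times 44% were, so the test could find only very large differences.

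**Figure D4:**
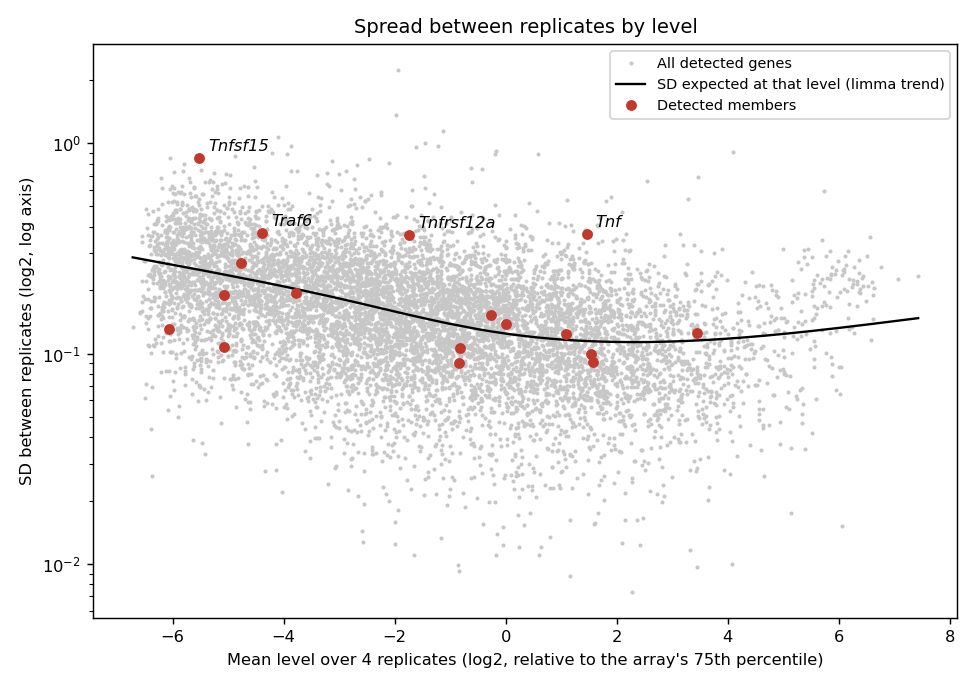
SD between the 4 replicates (log2, log axis) against mean level (log2) for all detected genes (grey), with the SD expected at each level (line) and the 17 detected members (red). The named members, Tnfsf15, Traf6, Tnfrsf12a and Tnf, have SDs of 0.85, 0.37, 0.37 and 0.37. Other members also lie above the line, and none passed the test.

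Those 3 members were lowest in replicate 2 and had replicates 3 and 4 both above replicates 1 and 2. So did Tnfrsf11a with the processed signals, but not with normexp. That order held in 4 of 17 detected members, against 24.9% of all detected genes, so it is not a result about the family. Replicate 2 was the lowest for 8 of 17 detected members, against 27.4% of all detected genes, and replicate 1 for 5. By contrast, Fas, Ltbr, Tnfsf12 and Tnfsf13 were highest in replicate 2. The arrays of replicates 3 and 4 were also brighter and were closer to each other (median absolute log2 difference of 0.08 per gene) than any other pair of arrays (0.15 to 0.21); whether this has a part in the levels of Tnf, Tnfrsf12a and Tnfsf15 was not tested. Replicate 2 was lowest for all 3 under 5 ways of scaling or background correction, the main one among them. Scaling to another percentile or to the median shifts all genes of an array alike, so it could change this order little. Of the 49 detected downstream genes, 15 (30.6%) had the same order and 3 (6.12%) had an unadjusted p under 0.05, near the shares over all detected genes. The 3 were Cflar, Zfp36l1 and Tank. Cflar encodes the caspase-8 inhibitor cFLIP and stood at -3.38, -3.77, -2.73 and -2.66, Zfp36l1, a relative of Zfp36, at -1.55, -1.41, -0.83 and -0.78, and Tank, a TRAF-binding regulator of NF-kB, at -2.82, -3.33, -2.51 and -2.41. Cflar and Zfp36l1 were picked after their values were seen, and none of the 3 passed after adjustment. The macrophage marker Itgam, an integrin gene, had the same order, at -2.08, -2.17, -1.21 and -1.30. In all, 3 of the 8 macrophage markers (37.5%) had it, against 24.9% of all detected genes. Itgam was picked after its values were seen, as the only such marker with an unadjusted p under 0.05. It did not pass after adjustment (adjusted p of 0.97, same limma fit).

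**Figure D5:**
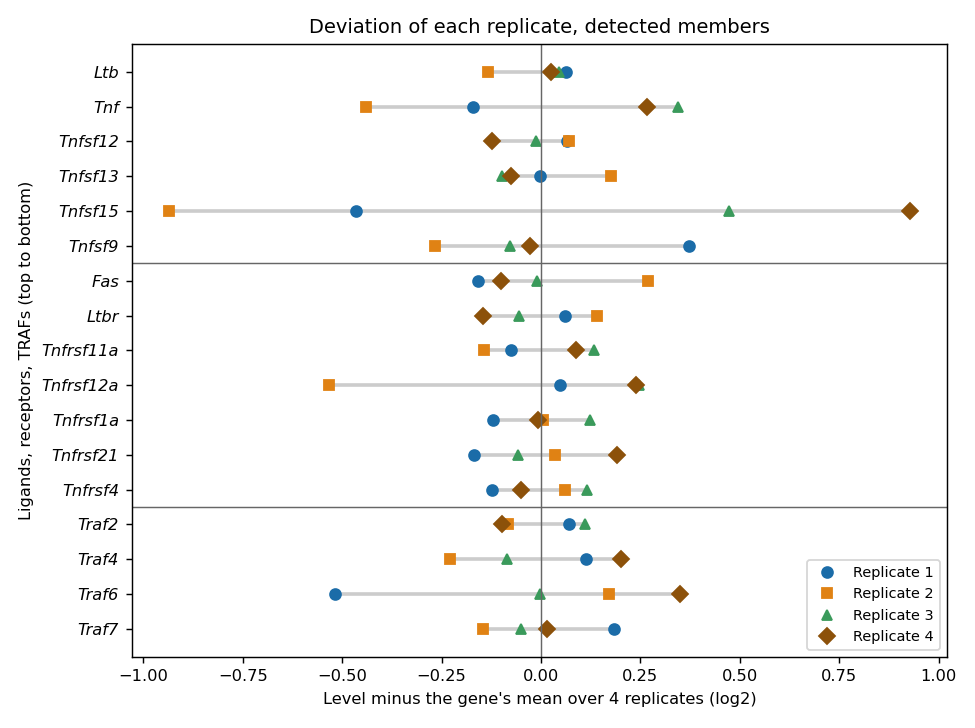
Deviation of each replicate from the gene's mean level (log2) for the 17 detected members, by role. Tnf, Tnfsf15 and Tnfrsf12a have replicate 2 at the low end and replicates 3 and 4 at the high end, while Fas, Ltbr, Tnfsf12 and Tnfsf13 have replicate 2 at the high end.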

How the data were processed

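The deposited files hold the intensity of each spot as Agilent's background-subtracted processed signal, which the authors obtained from Agilent Feature Extraction (version 11.0.1.1, per the file headers). For scaling between arrays, no step by the authors is recorded in the headers. There were 62976 spots on an array, 4259 of them controls. Control spots and outlier spots (537 to 722 per array) were left out, and spots of 1 probe were averaged on the log2 scale. Probes were named by matching accessions, without versions, to the RefSeq table of GRCr8, which differs from the rn4 build in the file headers, so no position is given except those of promoter windows, which are in GRCr8; 21109 probes were named. A probe was detected where most of its spots were well above background, on 9078 to 9119 named genes per array. The scaling percentile was taken over probes detected on all arrays. A gene's level is that of its brightest probe, detected ones first. Variation between replicates was tested in R 4.3.3 (limma 3.58.1) as the ratio of a gene's residual variance (intercept fit) to the variance expected at its level (F test), Benjamini-Hochberg adjusted over 8713 genes at 0.05. It was tested on simulated data with 200 genes of raised SD. Figures used matplotlib 3.10.9. The number of arrays limits the precision. Normexp was run on median spot and background signals with an offset of 50.

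All measured members are named; the downstream genes named are those that differ from their list, then the first 4 of each. The members, lists and tests were chosen with earlier results of these data known. Alternatives covered detection rules, scaling, background correction, probe choice, outlier flags, the variance model and leaving out each replicate.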

Additional observations from a re-analysis of the deposited data

Results flagged for a closer look

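Dixon's ratio divides the gap between 1 replicate and its nearest neighbour by the range of all 4. It passed its critical value in 5 of the 43 sets checked; chance alone flags 1 in 20, or about 2.15 here. No family member's level was among them. The number of members well above background was 17 in replicate 4 and 20 in each of the others (ratio 1). With the other counts tied, the ratio is 1 whatever the size of the gap, so this flag says nothing about an outlier. For Fadd, replicate 1 stood above the rest, with levels of -3.32, -3.44, -3.45 and -3.46 in replicates 1 to 4 (ratio 0.844). For Rnf31 it was replicate 2 that stood below the rest, with -1.29, -1.80, -1.28 and -1.23 (ratio 0.891). Replicate 3 was the high one for Ikbkb, with -1.44, -1.44, -1.29 and -1.45 (ratio 0.953). Replicate 4 was the high one for Nfkb1, with -1.17, -1.18, -1.15 and -0.82 (ratio 0.900).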

How the results depend on the processing

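No paired analysis was possible because the labels give 1 group. The count of detected members ran from 16 to 22 over 10 alternatives, and all 17 were kept in each except that Fas was lost where every probe of a gene had to be detected. Receptors detected numbered 11 where Agilent's flag of a significant positive signal was used, against 7. Downstream genes detected ran from 45 to 52, against 49, and Zfp36, Birc3 and Map3k5 passed with that flag. Members that passed the variance test numbered 0 under all 13 alternatives, though the test could find only very large differences, as given above. Over all genes that count was 1, and it was 9 with the 75th percentile over all probes, 4 with outlier spots kept, 2 with a filter of 3 of 4 arrays, and 0 with quantile normalization, with no intensity trend and with no filter on dim probes; leaving out each replicate gave 0 to 9 (0 without replicate 1 or 2, 9 without replicate 3 or 4). Members that spanned more than 2-fold numbered 0 with normexp, whose offset of 50 narrows the range of dim probes, against 1. The level of a gene depends on the percentile chosen as its zero: Ltb stood at -0.84, at 2.69 with the percentile over all probes and at 1.56 with the median of detected probes. The median SD of members ran from 0.117 to 0.164. Signals near background limit what can be said of Lta, Tnfrsf8, Tnfrsf25, Tnfrsf13b, Cd40 and Cd40lg, which changed their call with the detection rule. Tnfsf15 kept its call, but its signals in replicates 1 and 2 were also near background.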
